A study of Mus musculus with 10 samples.

Results

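The Sox transcription factor family was followed through 10 of its genes, Sox4, Sox5, Sox6, Sox7, Sox8, Sox9, Sox11, Sox12, Sox17 and Sox18, in mouse cells on their way from fibroblast to extraembryonic endoderm-like (XEN-like) cell. The members were taken by name from the 23197 gene rows of a single-cell count table, and all 10 were present. The table holds 808 cells, of which 670 had at least 4000 detected genes and were used.

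The starting cells (d0) were mouse embryonic fibroblasts (MEFs) prepared from ICR embryos after head, limbs and viscera had been removed, a mixed mesenchymal population rather than a clone. All later cells came from such MEFs kept in a cocktail that the labels call C6FAE: CHIR99021, which inhibits GSK3 and so stabilises beta-catenin, 6 for the TGF-beta receptor inhibitor RepSox, Forskolin, which raises cAMP, the retinoid AM580 and EPZ004777, which inhibits the histone methyltransferase DOT1L. The study's methods name valproic acid beside these compounds and the labels do not. Cells were picked by hand and are named d0, d1, d2, d3, d4, d5, d6p, d8, d8c, d12, d12c and d20 for the day they were taken. Those of d8c and d12c were picked from epithelial colonies, and what the p of d6p stands for is not stated. Each time point kept between 20 cells (d8c) and 86 cells (d6p). The count table does not say which of the 10 sequenced samples a cell belongs to, so the table stands for 1 sample and the differences between time points have no replicate check. Nothing was tested for that reason. Intervals given for UMI sums, ratios and shares of cells are exact 95% intervals and cover counting error only.

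Depth differed between time points. The median number of UMIs (unique molecular identifiers, 1 for each captured RNA molecule) per cell was 510306 over all cells used, was highest at d2 with 1055206 and lowest at d20 with 195480. Shares of cells with a UMI are therefore also given after each cell was thinned to 50000 UMIs, which left 647 cells. Levels are means over the cells of a time point in CPM, in which a cell's UMIs are scaled to the same total. The d12c cells fall into 21 cells numbered 1 to 24 and 30 cells numbered 49 to 96. These are given apart where they differ, because the numbers may mark separate libraries. The cell names give no other mark of a library.

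Sox proteins bind DNA through a shared HMG box and are sorted by sequence into groups whose members often act in the same tissues. The SoxC genes Sox4, Sox11 and Sox12 are known from neural and mesenchymal progenitors. The SoxD genes Sox5 and Sox6 work beside Sox9 in cartilage, and Sox9 and Sox8 belong to SoxE, the group of neural crest, gonad and cartilage. The SoxF genes Sox7, Sox17 and Sox18 are known from blood vessels, and Sox17 and Sox7 also from endoderm, including the extraembryonic endoderm from which XEN cells are derived.

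Over the course, the SoxC genes made up most of the summed Sox level up to d12, and the SoxF genes made up most of it in d12c and d20. Per kilobase of transcript (the longest GENCODE transcript of each gene, mouse build NCBIM37), SoxC held 82.1% of the summed level of the 10 genes at d0, 92.1% at d5, 82.7% at d8, 52.4% at d12 and 3.1% at d20. SoxF went the other way, with 0.9% at d0, 6.8% at d5, 14.2% at d8, 39.2% at d12 and 95% at d20. In d12c the SoxF share was 84.4%, and it was 89.9% in the d12c cells numbered 49 to 96. SoxE had its largest share at d0 with 14.4%, nearly all of it Sox9, and SoxD did not pass 6.6%, at d8c. The summed level of the family was 36.1 CPM per kilobase at d0, 152.1 at d5, 34.4 at d8 and 356.8 at d20. The family total thus had a peak at d5 that was mostly Sox11 (84.2% of the family) and another at d20 that was mostly Sox17 (87.9%). Without division by length the shares at d0 and d20 were 74.3% SoxC and 94.9% SoxF.

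**Figure D1:**
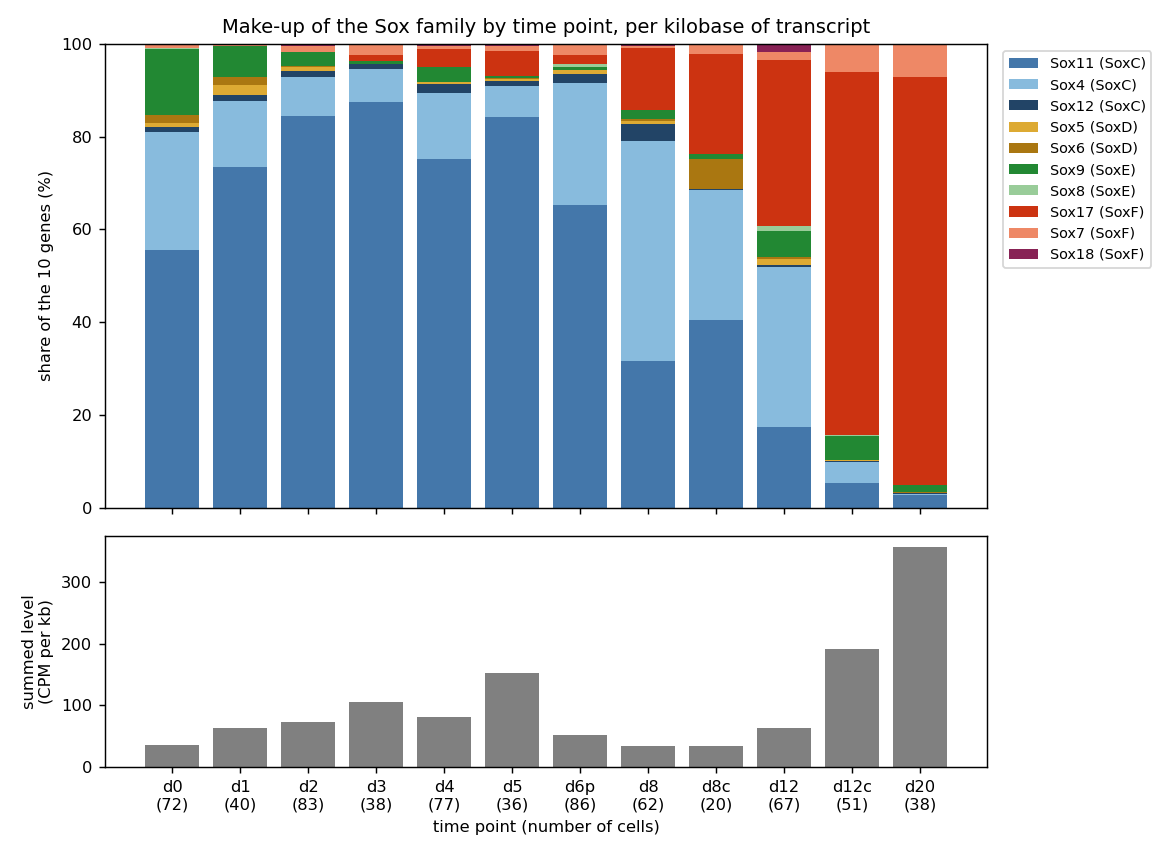
Share of each Sox gene in the summed level of the 10 genes (upper bars, % of CPM per kilobase of transcript) and that summed level itself (lower bars, CPM per kilobase) at each time point, with the number of cells in brackets. The blue SoxC part shrinks from 82.1% at d0 to 3.1% at d20 while the red SoxF part grows from 0.9% to 95%, and d12 is the time point at which both are large.

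**Figure D2:**
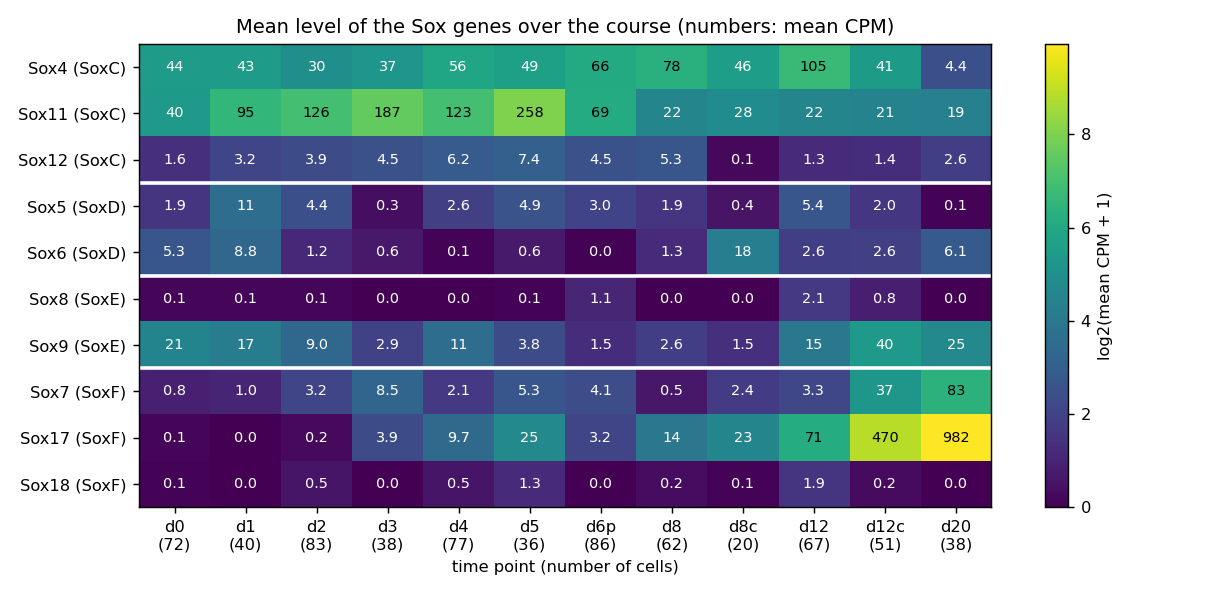
Mean level of the 10 Sox genes (rows, grouped into SoxC, SoxD, SoxE and SoxF) at the 12 time points (columns, number of cells in brackets), with the mean CPM printed in each field and log2(mean CPM + 1) as colour. Sox11 is brightest at d5, Sox4 at d12, and Sox7 and Sox17 at d20.

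Members were called higher or lower between time points when log2 of (mean CPM + 1) differed by at least 2-fold and the mean reached 1 CPM in either group. At d1 against d0, 2 of 7 members that passed this minimum were higher (Sox11 and Sox5) and none was lower, where 11.5% of all genes were higher and 13.9% lower. By d5, 6 of 9 were higher than at d0 (Sox11, Sox12, Sox5, Sox7, Sox17 and Sox18; 22.4% of all genes) and 2 were lower (Sox6 and Sox9; 11.7% of all genes). At d12 against d0, 6 of 10 were higher (Sox4, Sox5, Sox7, Sox8, Sox17 and Sox18; 20.9% of all genes) and 0 lower (19.3% of all genes). At d20 only Sox7 and Sox17 of 8 were higher than at d0 (23.7% of all genes), and Sox4, Sox5 and Sox11 were lower (22% of all genes). Between d12 and d20, Sox7 and Sox17 were higher (29.3% of all genes) and Sox4, Sox5, Sox8 and Sox18 lower (25.7% of all genes), of 10 members. The d12c cells numbered 49 to 96 against d12 gave 3 higher (Sox7, Sox9 and Sox17; 23.6% of all genes) and 3 lower (Sox4, Sox6 and Sox18; 27.1% of all genes) of 10. The median log2 fold of the 10 members, with those under the minimum included, was 1.07 at d5, 1.18 at d12 and 0.03 at d20 against d0. That of all genes with a UMI in either group was 0.11, -0.03 and -0.01. Among all genes that passed the minimum it was 0.20, -0.09 and 0.15. Scaling with TMM factors moved the median of all genes by -0.33 on the log2 scale between d12 and d20, and with DESeq2 size factors by -0.32. All 5 calls of Sox17 and both of Sox7 at d20 were also made with either scaling.

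Sox11, a SoxC gene of embryonic neural and mesenchymal progenitors (ENSMUSG00000063632, NCBIM37 chr12:28025562-28027574, minus strand), was called higher at d1, as was Sox5. Its mean was 40.4 CPM at d0, 94.6 at d1, 125.5 at d2, 187.1 at d3, 122.8 at d4 and 258.0 at d5. From there it was 68.9 CPM at d6p, 21.9 at d8, 27.5 at d8c, 22.0 at d12 and 20.6 at d12c, with 19.0 at d20. Sox11 was thus highest at d5, 2.65 higher than at d0 on the log2 scale, and back under the d0 level by d8. The d0 mean was carried by few cells: the lowest d0 cell had 0, the median 4.28 and the highest 635.5 CPM. At d5 the median cell had 206 CPM, the lowest 3.29 and the highest 1345 CPM, and 25 of 36 cells were above 100 CPM against 9 of 72 at d0. Every d5 cell and every d3 cell held Sox11 UMIs, and after thinning 94.3% of d5 cells still did against 35.2% at d0, 33.3% at d12 and 19.4% at d20. The ranges of single cells overlapped between all of these time points. On summed UMIs the ratio of d5 to d0 was 7.75 (7.27 to 8.27), and that of d1 to d0 was 1.72 (1.60 to 1.86), under 2-fold, where the highest d1 cell alone had 1315 CPM. The d20 call is likewise narrow, with a summed ratio of 0.573 (0.476 to 0.686), and all d20 cells with Sox11 were numbered 1 to 48, where the mean was 24.0 CPM; the 8 cells numbered above 48 had 0.

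Sox12, the third and least abundant SoxC gene (ENSMUSG00000051817, NCBIM37 chr2:152219347-152223782, minus strand), was called higher at d5 too, at much lower levels. Its mean was 1.60 CPM at d0, 3.24 at d1, 7.38 at d5, 5.31 at d8 and 1.25 at d12. Single cells carried much of it: without the highest cell the means were 0.490 CPM at d0, 6.04 at d5 and 2.37 at d8. UMIs were found in 16.7% of cells at d0, 47.2% at d5 and 14.9% at d12, and after thinning in 2.8%, 17.1% and 3.0%. The log2 fold at d5 against d0 was 1.69, and the ratio of summed UMIs was 5.47 (3.88 to 7.88). Over d3 to d8c, 116 of the 123 cells with Sox12 also had Sox11, as did 161 of the 196 cells without Sox12.

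Sox4 (ENSMUSG00000076431, NCBIM37 chr13:29040788-29045582, minus strand) shares the SoxC group and differed in its timing. A second gene entry of the annotation lies inside it under the same name, and its counts may hold reads of both. Its mean was 44.1 CPM at d0, 30.0 at d2, 48.7 at d5, 66.0 at d6p, 78.1 at d8 and 104.9 at d12. In d12c it was 41.4 CPM and at d20 4.43 CPM. The highest level therefore came at d12, after that of Sox11, and there the log2 fold against d0 was 1.23 and the summed ratio 2.39 (2.27 to 2.52). The medians had the same order: the median d12 cell had 69.9 CPM, that of d0 19.2 CPM and that of d20 0. At d20 only 4 of 38 cells held Sox4, a share with an interval of 2.9 to 24.8%, against 86.6% (76.0 to 93.7%) at d12; after thinning the shares were 8.3% and 74.2%. One d20 cell had 132.5 CPM and without it the d20 mean was 0.971 CPM. Sox4 was 4.29 lower at d20 than at d12 on the log2 scale and 3.05 lower than at d0. The ranges overlapped, since 9 d12 cells had 0. At d0, the cells numbered up to 48 had a mean of 26.0 CPM and those above it 71.0 CPM, and at d12 the same ranges had 109.4 and 95.8 CPM.

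The 250 bases before the start of the 3 SoxC genes are shown because Sox4 had its highest mean at d12, and Sox11 and Sox12 had theirs at d5. They are RefSeq sequences on build GRCm38.p6, 5′ to 3′ on the gene's strand, with capitals where the CCAAT box or its reverse complement ATTGG was found. The promoter table matched 6 of the 10 members, and Sox7, Sox9, Sox17 and Sox18 were not among them. The positions are Sox11 at chr12:27342719-27342968, Sox12 at chr2:152398047-152398296 and Sox4 at chr13:28953700-28953949, all on the minus strand.
Sox11: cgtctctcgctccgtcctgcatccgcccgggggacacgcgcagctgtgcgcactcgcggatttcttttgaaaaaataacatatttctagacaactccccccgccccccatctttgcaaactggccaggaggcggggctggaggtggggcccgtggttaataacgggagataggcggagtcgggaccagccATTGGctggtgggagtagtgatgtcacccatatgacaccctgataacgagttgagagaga
Sox12: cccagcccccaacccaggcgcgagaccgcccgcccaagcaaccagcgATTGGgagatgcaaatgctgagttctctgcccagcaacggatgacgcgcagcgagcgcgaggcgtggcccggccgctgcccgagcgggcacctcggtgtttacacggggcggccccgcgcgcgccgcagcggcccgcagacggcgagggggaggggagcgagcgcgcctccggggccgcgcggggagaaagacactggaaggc
Sox4: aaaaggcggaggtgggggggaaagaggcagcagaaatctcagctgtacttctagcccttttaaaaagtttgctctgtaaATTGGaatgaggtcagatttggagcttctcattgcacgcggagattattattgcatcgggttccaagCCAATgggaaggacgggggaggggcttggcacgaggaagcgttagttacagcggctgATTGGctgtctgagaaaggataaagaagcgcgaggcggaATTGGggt
CCAAT was found 1 time in the Sox11 and Sox12 windows and 4 times in that of Sox4, and 33.8% of all 32851 windows of this length held it on either strand. The GC box GGGCGG was found 2 times in Sox11, 3 times in Sox12 and 0 times in Sox4 (32.7% of all windows). The full cAMP response element TGACGTCA was in none of the 3 (1.55% of all windows), and its part TGACG, which the full element contains, was in Sox12 only (17.8%). CTTTG, the core of TCF and LEF sites, was found once in Sox11 and in neither of the others (48.6%). TATAAA (12.4%) and ATTGT, the core that Sox proteins bind (27.7%), were in none. These matches describe letters in a window and not binding.

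Most genes of a list of 8 beta-catenin partners and Wnt feedback genes were higher at d5 and also at d20. At d5 against d0, 6 were higher and 1 lower, with a median log2 fold of 3.09, where 22.4% of all genes were higher and 11.7% lower. At d12 4 were higher and 2 lower than at d0 (20.9% and 19.3% of all genes). At d20 6 were higher and 0 lower than at d0 (23.7% and 22% of all genes), with a median of 2.09. Lef1, a DNA-binding partner of beta-catenin, had means of 16.3, 115.6 and 237.7 CPM at d0, d1 and d5, and Notum, a secreted Wnt inhibitor that Wnt signalling switches on, 3.1, 23.4 and 282.0 CPM. Tcf7l2, another such partner, ran against this, with 178.0 CPM at d0, 24.3 at d5 and 463.3 at d20.

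**Figure D3:**
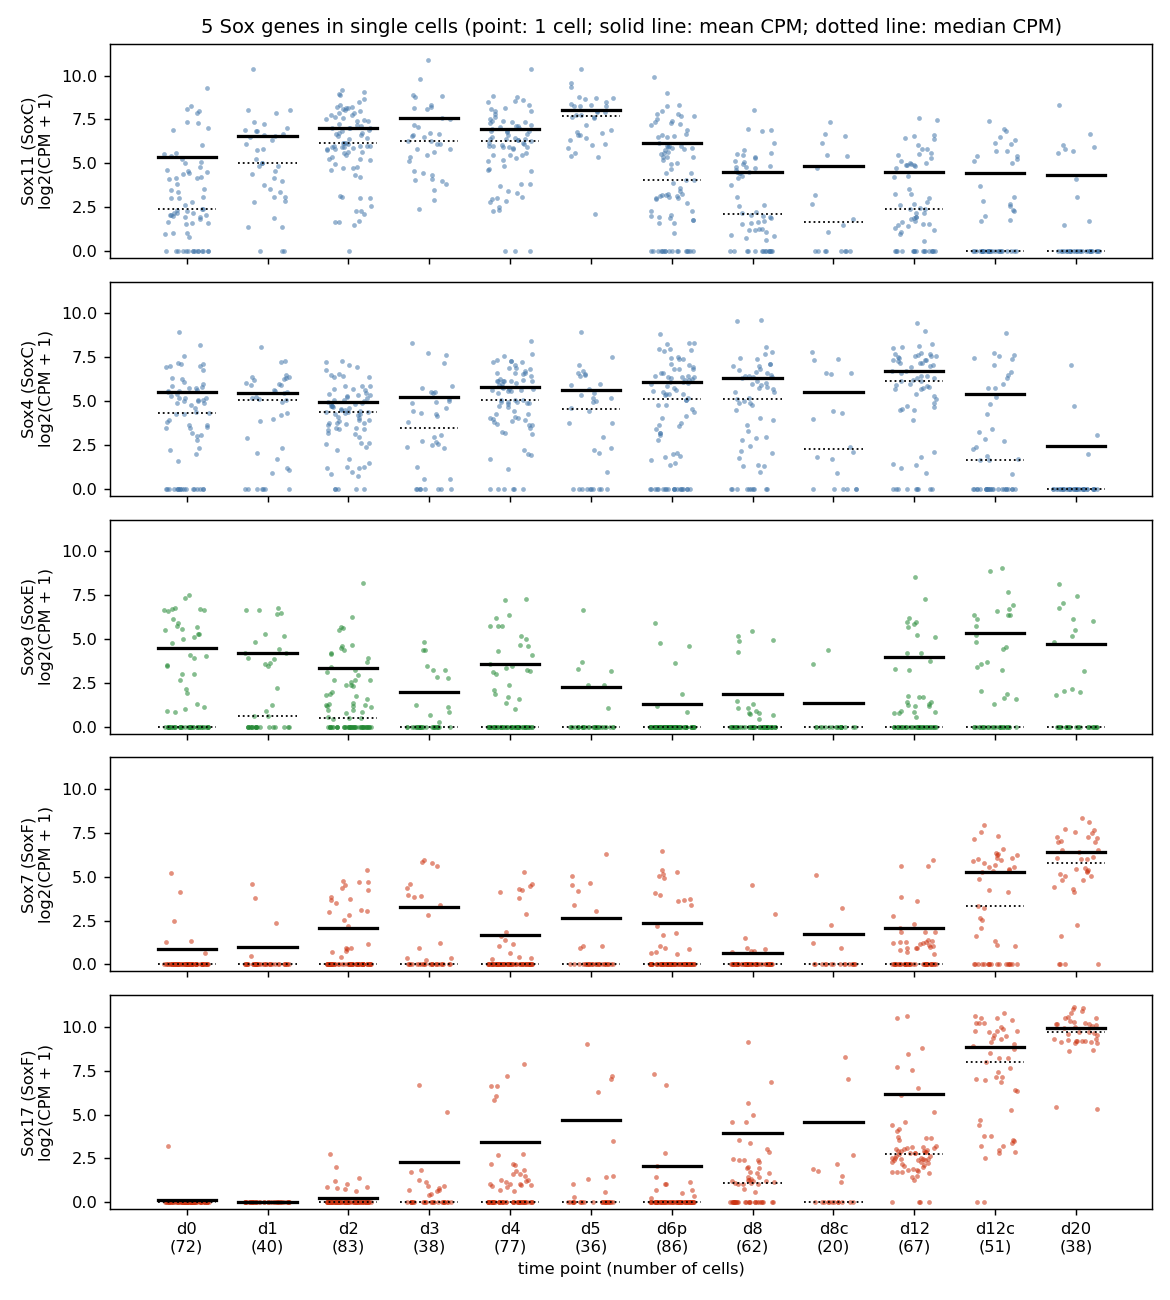
Single cells at each time point for Sox11, Sox4, Sox9, Sox7 and Sox17, as log2(CPM + 1), with 1 point a cell, a solid line at the mean CPM and a dotted line at the median. Sox11 forms a dense band at d5, Sox4 at d12, and nearly all d20 cells are high in Sox17, while Sox9 has UMIs in at most 53.0% of the cells of a time point.

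Among the SoxD genes, Sox5 (ENSMUSG00000041540, NCBIM37 chr6:143776945-144730497, minus strand) was called higher than at d0 at d1, d5 and d12. Its mean was 1.91 CPM at d0, 10.6 at d1, 4.36 at d2, 0.294 at d3, 2.65 at d4 and 4.89 at d5. It was 2.96 CPM at d6p, 1.90 at d8, 0.450 at d8c, 5.39 at d12, 1.99 in d12c and 0.0609 at d20. The d5 and d12 calls were not made after thinning, and without its highest cell the d5 mean was 2.52 CPM. UMIs were found in 16.7% of d0 cells, 45.0% of d1 cells and 26.9% of d12 cells, and 1 UMI in 1 of 38 d20 cells. The d1 mean was 6.95 CPM without its highest cell of 153.8 CPM. The log2 fold was 2.00 at d1 against d0 and -2.59 at d20 against d12.

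Sox6 (ENSMUSG00000051910, NCBIM37 chr7:122614858-123182258, minus strand), which binds DNA as a dimer with Sox5 or itself, did not follow it. Its mean was 5.31 CPM at d0 and 8.80 at d1, at most 1.29 from d2 to d8, 17.9 in the colony cells of d8c, 2.56 at d12 and 6.05 at d20. From d3 to d6p, 5 of 237 cells held it. The d8c level rested on few cells: 9 of 20 had UMIs, the highest had 177.9 CPM, and without it the mean was 9.46 CPM. Sox6 was 1.94 lower at d5 than at d0 on the log2 scale; at d20 its log2 fold against d0 was 0.16. Sox5 and Sox6 were in the same cell in 5 of 72 cells at d0, 4 of 62 at d8, 3 of 67 at d12 and 0 of 38 at d20. At d0 Sox6 was in 41.7% (15.2 to 72.3%) of the 12 cells with Sox5 and in 16.7% (8.3 to 28.5%) of the 60 without, intervals that overlap.

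Sox9 (ENSMUSG00000000567, NCBIM37 chr11:112643538-112649074, plus strand), the SoxE gene that directs cartilage formation, was low in the middle of the course and present at both ends. Its mean was 21.4 CPM at d0, 17.5 at d1, 9.0 at d2, 2.87 at d3, 10.9 at d4, 3.81 at d5, 1.46 at d6p, 2.62 at d8, 1.52 at d8c, 14.7 at d12, 40.2 at d12c and 24.9 at d20. Sox9 was thus 2.22 lower at d5 than at d0 on the log2 scale, and at d20 the log2 fold against d0 was 0.21, under the fold for a call. The share of cells with UMIs was 47.2% (35.3 to 59.3%) at d0, 8.1% (3.3 to 16.1%) at d6p and 36.8% (21.8 to 54.0%) at d20, and 29.6%, 3.7% and 19.4% after thinning. High cells were few throughout, 5 above 100 CPM at d0, 5 at d12c and 4 at d20, with highest cells of 181.2, 522.6 and 277.6 CPM. The number ranges differed at d4, with 1.7 CPM in cells numbered up to 48 and 20.8 CPM above it, and the other way at d12, with 20.8 and 2.30 CPM. At d12, 1 cell held 37.8% of the summed level.

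The cartilage genes that Sox9 is known to drive were low at d20. Of 10 cartilage markers, 5 passed the minimum at d20 against d0, of which 0 were higher and 5 lower (23.7% and 22% of all genes). Col2a1, the main cartilage collagen, had means of 33.6 CPM at d0, 0.0 at d12 and 1.2 at d20, and Col11a1 46.4, 31.1 and 0.4 CPM. Sox9 was found with Sox5 in 8 of 34 Sox9 cells at d0 and 0 of 14 at d20, and with Sox6 in 9 of 34 and 3 of 14.

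Sox8 (ENSMUSG00000024176, NCBIM37 chr17:25702837-25707631, minus strand), which often overlaps Sox9 in developing tissues, was near 0 for most of the course. It had 0 UMIs at d3, d4, d8, d8c and d20, and a mean of 1.10 CPM at d6p, 2.13 at d12 and 0.761 at d12c. At d12, 15 of 67 cells held it (22.4%; 3.0% after thinning) and the highest had 68.4 CPM. Of these 15 cells, 7 also had Sox9. Of the 7 markers of neural crest and Schwann cells, where SoxE genes are also known, 4 passed the minimum at d20 against d12. Of these 1 was higher and 1 lower, where 29.3% of all genes were higher and 25.7% lower. S100b and Ngfr led the list at d12 with 161.9 and 29.0 CPM, and the defining genes Foxd3 and Erbb3 were at 0.0 at d12.

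Sox17 (ENSMUSG00000025902, NCBIM37 chr1:4481009-4486494, minus strand), an endoderm regulator of the SoxF group, had the widest range of all members. It was represented by 1 UMI in 72 cells at d0 and 0 in 40 cells at d1, which allows UMIs in up to 7.5% of such cells (3 of 40) and sets no limit on cells with the gene expressed. Its mean was 0.197 CPM at d2, 3.91 at d3, 9.73 at d4, 24.8 at d5, 3.20 at d6p, 14.4 at d8, 22.7 at d8c, 70.8 at d12, 470 at d12c and 982 at d20. All 38 cells of d20 had Sox17, from 39.4 to 2223 CPM with a median of 837, and every one was above the highest d0 cell of 8.15 CPM. The ratio of summed UMIs at d20 to d0 was 36664 (6579 to 1448320), an interval this wide because of the single d0 UMI. That of d20 to d12 lay between 11.1 and 12.0 by counting error alone. This interval leaves out the spread between cells, and 1 d12 cell held 1815 of the 4476 UMIs at d12. In the order of means, d20 was followed by d12c, where the middle cells (16.6 to 837 CPM, lower to upper quartile) overlapped with those of d20 (581 to 1229 CPM), then by d12 with 3.26 to 9.52 CPM.

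From d3 to d12 the Sox17 mean rested on few cells. Between 2 and 6 cells of each time point from d3 to d8c were at or above 20 CPM, 22 of 319 cells in all, and at d5 the highest cell with 523.1 CPM held 58.5% of the summed level, without which the mean was 10.6 CPM. At d12, 11 of 67 cells were at or above 20 CPM, with 6 cells at 10 to 20 CPM and 3 at 20 to 40 CPM next to that limit; the 5 highest held 84.8% of the summed level. UMIs were nonetheless found in 94.0% (85.4 to 98.3%) of d12 cells, and 52 of them had at most 17.0 CPM with a median of 4.84. After thinning the share at d12 was 36.4%, and at d8 8.5% against 59.7% unthinned. Low Sox17 counts went with depth: in d3 to d8c the cells with Sox17 below 20 CPM had a median of 939566 UMIs, those with none 375704. The low counts at d12 were above those of d0 and their origin was not tested. Gata4, an endoderm factor, showed the same kind of spread at d12, with UMIs in 65.4% of the cells with Sox17 below 20 CPM at a median of 0.907 CPM.

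Sox17 differed between the number ranges at d4, d8 and in d12c. At d4, UMIs were found in 55% (38.5 to 70.7%) of cells numbered up to 48 and 18.9% (7.96 to 35.2%) of those above, with means of 12.9 and 6.33 CPM, and after thinning in 4 of 39 and 4 of 34 cells. At d8, 76.2% of cells numbered up to 48 and 25% of those above had Sox17 UMIs, with means of 20.1 and 2.3 CPM. In d12c the means were 211.7 CPM in the 21 cells numbered 1 to 24 and 650.4 CPM in the 30 cells numbered 49 to 96, and for Sox7 6.0 and 59.5 CPM. At d20 the ranges had 1022 and 834 CPM of Sox17 and 84.0 and 80.9 CPM of Sox7.

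Sox7 (ENSMUSG00000063060, NCBIM37 chr14:64562511-64569569, plus strand), the SoxF gene of primitive and parietal endoderm, was low up to d12, with an early maximum at d3. Its mean was 0.834 CPM at d0, 3.20 at d2, 8.52 at d3, 5.33 at d5, 0.543 at d8 and 3.30 at d12. It was 37.5 CPM in d12c and 83.4 CPM at d20. At d3, 42.1% (26.3 to 59.2%) of cells held Sox7 UMIs against 8.3% (3.1 to 17.3%) at d0, and 24.3% against 1.4% after thinning. The summed ratio of d3 to d0 was 7.17 (5.32 to 9.86). Sox7 was therefore above the d0 share at d3, and at d8 its mean was under that of d0. At d20, 89.5% of cells had it, with a median of 53.5 and a highest cell of 322.3 CPM, and the log2 fold was 5.52 against d0 and 4.29 against d12. The ranges overlapped: 14 d20 cells, 4 of them at 0, were under the highest d0 cell of 35.7 CPM.

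Sox18 (ENSMUSG00000046470, NCBIM37 chr2:181404541-181406345, minus strand), a gene of vessel and lymph vessel formation, never reached 2 CPM. Its highest mean was 1.86 CPM at d12, 0.314 without 1 cell of 103.7 CPM, and at d20 it had 0 UMIs in 38 cells, which at that depth allows UMIs in up to 7.9% of cells (3 of 38). Without that cell Sox18 at d12 was under the minimum of 1 CPM, so its call there rests on it. Of 10 endothelial markers, the defining genes Pecam1 and Cdh5 stayed at or under 1.15 and 2.16 CPM at every time point and Emcn and Tie1 were at 0.0 at d20. The summed mean of the list was 23.6 CPM at d0 (cells from 0 to 259.7 CPM) and 157.7 CPM at d20 (cells from 0 to 621.1 CPM). Of 6 genes that passed the minimum in this comparison, 3 were higher and 3 lower at d20 (23.7% and 22% of all genes). At d12, where Sox18 had its highest mean, 2 of the 6 that passed the minimum were higher than at d0 and 2 lower. Of all genes 20.9% were higher and 19.3% lower. The higher genes were Kdr, a receptor for vessel growth factors, with 36.2 CPM against 2.60 at d0, and Cldn5, an endothelial junction gene, with 5.35 CPM against 0. Tek and Emcn were lower, at 0.222 and 0 CPM against 3.55 and 1.10 at d0. Kdr and Cldn5 were lower again at d20. Most of the summed level of the list at d0 and d20 was Egfl7, a secreted vessel factor, at 12.2 and 145.2 CPM.

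Over d3 to d8c few cells held both Sox7 and Sox17, and in d12c and at d20 most did. At 5 CPM or more, 31 cells of d3 to d8c held Sox17 and 42 held Sox7, of 319, and 2 held both, so that Sox7 was in 6.45% (0.791 to 21.4%) of cells with this much Sox17 and in 13.9% of the others, within counting error. At d5, 11 of 36 cells had Sox17 UMIs and 10 had Sox7 UMIs, and none had both, so that Sox7 was in 0% (0 to 28.5%) of cells with Sox17 and in 40.0% (21.1 to 61.3%) of those without. At d3, 8 of 14 Sox17 cells had Sox7, and over d3 to d8c at 1 UMI the shares were 26.8% (18.9 to 36%) with Sox17 and 22.7% (17.2 to 29.0%) without. Over all cells with a UMI the intervals overlapped, and the cells with Sox17 had a higher median depth, 902884 against 375704 UMIs. The intervals at d5 overlapped as well. With 1 UMI as the limit, all 28 cells with Sox7 at d12 had Sox17, and so did all 34 in d12c and all 34 at d20. Cells with both were thus 28 of 67 at d12, 34 of 51 in d12c and 34 of 38 at d20. With 5 CPM as the limit, Sox7 was in 11.1% of the d12 cells with Sox17. At these time points 94.0%, 96.1% and 100% of all cells had Sox17. In d12c the Spearman coefficient of Sox7 and Sox17 was 0.47 over the 51 cells, which differ in number range and depth. Over the 30 cells numbered 49 to 96 it was -0.16, and it was 0.13 at d12 and 0.13 at d20.

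**Figure D4:**
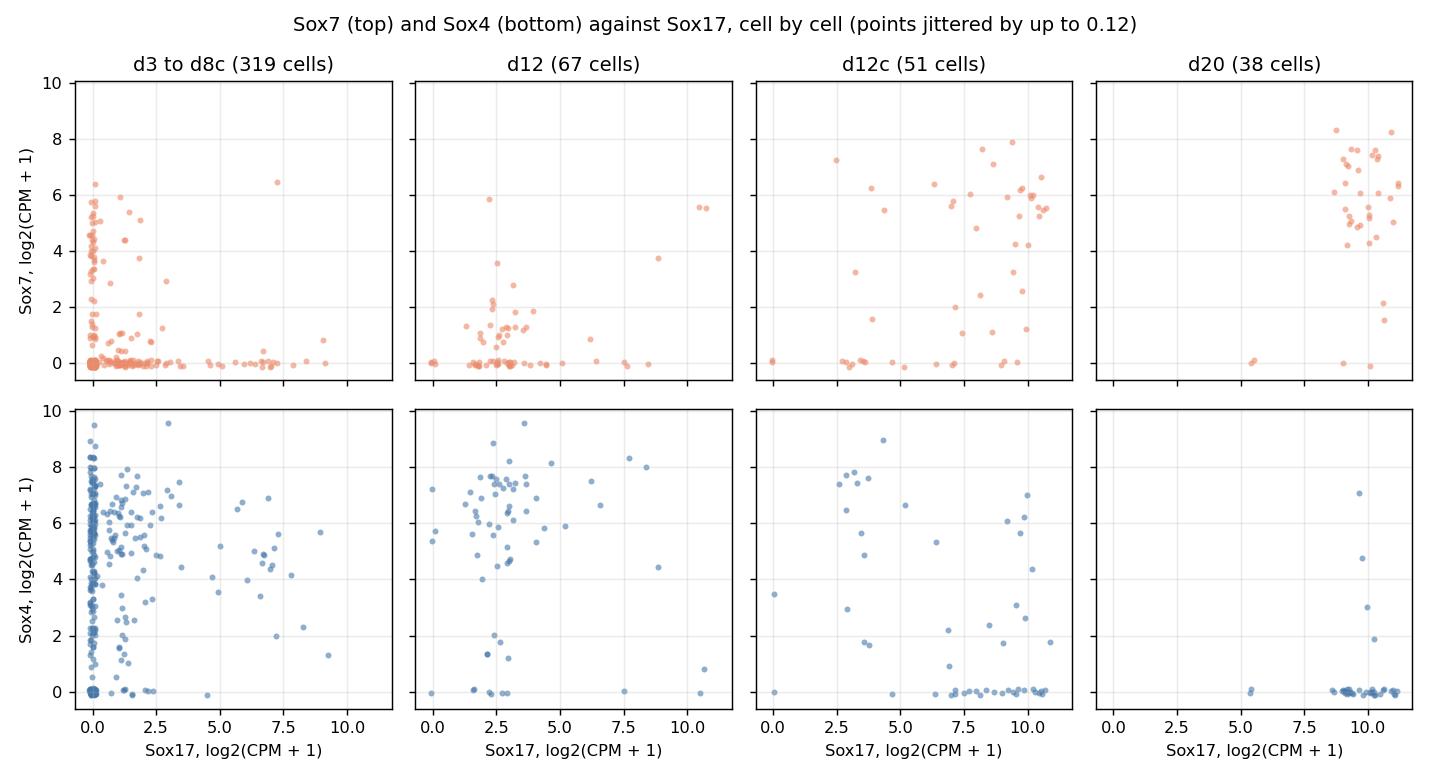
Sox7 (top row) and Sox4 (bottom row) against Sox17 in each cell, as log2(CPM + 1), for d3 to d8c, d12, d12c and d20. In d3 to d8c 2 of 319 cells hold both Sox7 and Sox17 at 5 CPM or more, at d20 32 of 38 cells do, and Sox4 is at 0 in 34 of 38 cells at d20.

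Cells holding both SoxC and SoxF genes were found at nearly every time point. Counting Sox4 and Sox11 together and Sox17 and Sox7 together, at 20 CPM or more each, 50 of 72 d0 cells had the SoxC pair alone and 1 had the SoxF pair alone. Cells with both were 7 of 38 at d3, 8 of 36 at d5 and 6 of 62 at d8. At d12, 48 of 67 had SoxC alone, 9 had both, 3 had SoxF alone and 7 had neither. Colony cells of d12c had 8, 16, 24 and 3 of 51, and d20 had 0, 8, 30 and 0 of 38. At this limit cells with both were thus most frequent in d12c, 31.4% of cells, and 43.3% of those numbered 49 to 96. The split depended on the limit. At 5 CPM or more each, cells with both were 55.2% at d12 and 58.8% in d12c, and 21 of 67 d12 cells had SoxC alone.

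Over all d12c cells, Sox17 and Sox4 were mostly high in different cells, and these cells also differed in number range. The 38 cells with Sox17 at 20 CPM or more had Sox4 UMIs in 39.5% (24.0 to 56.6%), with a median of 0 and a highest cell of 472.3 CPM. The 11 cells with Sox17 UMIs below that limit all had Sox4 UMIs (71.5 to 100%), from 2.08 to 210.7 CPM with a median of 89.2 CPM. The 2 cells without a Sox17 UMI had 0 and 9.66 CPM of Sox4. Near the limit, 4 cells lay between 10 and 20 CPM of Sox17 and 3 between 20 and 40. Median depths were 294470 and 373173 UMIs. Of the 11 cells with low Sox17, 2 were numbered 49 to 96, as were 28 of the 38 with Sox17 at 20 CPM or more. The Spearman coefficient of Sox4 and Sox17 was -0.42 over all 51 cells and -0.13 over the 30 numbered 49 to 96. Whether the Sox4 difference goes with Sox17 or with the number range was not tested. At d12 no such difference was seen: Sox4 was in 9 of the 11 cells with Sox17 at 20 CPM or more, at a median of 61.0 CPM, and in 46 of the 52 with Sox17 UMIs below it, at a median of 75.9 CPM. Sox11 at d12 had medians of 1.74 and 4.85 CPM in the same cells and highest cells of 38.2 and 174.0 CPM.

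Sox9 was found beside Sox17 late in the course. In d12c all 24 cells with Sox9 had Sox17, where 49 of all 51 cells had it. After thinning, Sox9 was in 14 of 35 cells with Sox17 and 1 of 12 without, which is 40% (23.9 to 57.9%) and 8.33% (0.211 to 38.5%). Both genes followed the number range there: thinned, Sox9 was in 2 of 21 cells numbered 1 to 24 and 13 of 26 numbered 49 to 96, and Sox17 in 11 of 21 and 24 of 26. In d3 to d8c, thinned, none of 23 cells with Sox17 had Sox9, against 11.3% of those without, within counting error. With all UMIs, cells of d3 to d8c held both genes, and their Spearman coefficient over the 319 cells was 0.06. Sox5 was in 0 of the 38 d12c cells with Sox17 at 20 CPM or more and in 5 of the 11 with Sox17 UMIs below that, and 1 of the 2 without a Sox17 UMI had it.

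The cells high in Sox17 also differed in genes outside the family. Of 16 markers of extraembryonic endoderm, 12 of the 15 that passed the minimum were higher and 0 lower at d20 against d0 (23.7% and 22% of all genes), with a median log2 fold of 2.42, and of 12 fibroblast markers 0 were higher and 11 lower, with a median of -5.26. In d12c the 38 cells with Sox17 at 20 CPM or more had a median summed fibroblast level of 53.2 CPM. That of the 11 with Sox17 UMIs below that limit was 8390 CPM, and that of the 2 without 20844 CPM. At d12 the same medians were 3267 CPM in 11 cells, 11579 CPM in 52 and 11616 CPM in the 4 without a Sox17 UMI. The summed endoderm list was not higher in the cells with Sox17 at 20 CPM or more. Its medians in the same order of cells were 2248, 3382 and 4009 CPM in d12c and 4101, 5750 and 5091 CPM at d12. Gata4 and Sall4 are named here after their values were seen. Gata4 had a median of 160.4 CPM in the first set of d12c cells and 2.06 CPM in the second, and Sall4, a stem cell factor of XEN cells, 52.1 and 0 CPM. At d12 the cells with Sox17 at 20 CPM or more had a Gata4 median of 1.66 CPM and held Sall4 in 1 of 11. The most abundant genes of the endoderm list, Sparc and Fst, had another order over time: Sparc had 1899 CPM at d0, 3749 at d12 and 1276 at d20, and Fst 325.1, 1227 and 496.2 CPM. Col1a1 and Dcn led the fibroblast list, at 1237 and 482.3 CPM at d0, 3856 and 2827 CPM at d12, and 3.6 and 0.0 CPM at d20. Fibroblasts were thus present at d0 as labelled, with all 12 markers above 5 CPM. Of 6 blood markers, 2 passed the minimum at d20 against d0 with 0 higher and 1 lower; Cd68 and Csf1r led the list, at 10.4 and 1.7 CPM at d0.

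The median number of members in a cell changed little with all UMIs, and after thinning it was higher at d20 than at d0. The median cell had UMIs of 3 of the 10 genes at d0, 4 at d12 and 3 at d20, and after thinning 1, 2 and 2. Cells with none of the 10 were 5 of 86 at d6p and 1 of 51 in d12c, and 0 at the other time points before thinning.

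The genes whose means followed each member most closely over the 12 time points were taken from 8123 genes that reached 20 CPM at a time point, by Pearson's r of log2(mean CPM + 1). For Sox17 they were Lama1 (r = 0.96), Pitx1 and Rab15 (both 0.94), and for Sox7 1600002H07Rik (0.95), Stk26 and Srd5a1 (both 0.93). Igfbp7 (0.97), Pde4b and Aebp1 (both 0.96) came closest to Sox4, and Scoc (0.94), Artn and Ibtk (both 0.93) to Sox11. B3gat3 and Rnf34 (both 0.91) came close to Sox12, and Ino80c (0.93), Pdpn and Ckb (both 0.91) to Sox9. For the SoxD genes the closest were Kif2a (0.88), Slc7a11 (0.84) and Sestd1 (0.83) for Sox5, and Eri1 (0.87), Fam149a (0.86) and Mre11a (0.85) for Sox6. Sox8 and Sox18 did not reach the 5 CPM asked for. These coefficients are over 12 points of 1 table and describe likeness of pattern.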

How the data were processed

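Single-cell RNA-seq of 808 mouse cells in 12 time point groups was used. The deposited values are raw UMI counts: per the labels, the authors assigned reads to cells by barcode, mapped the trimmed reads to mm9 transcripts and collapsed duplicates by UMI. The aligner is not given in the sources used here. From 23293 rows, 92 ERCC spike-in rows (5.43% of UMIs) and 4 rows with repeated date-like names were left out of totals. The 670 cells with 4000 or more detected genes were used, and counts were divided by each cell's UMIs to give CPM. A cell was thinned by drawing 50000 of its UMIs without replacement. No doublet caller was run, since cells were picked singly. Cells could not be tied to the 10 sequenced samples, so no test was run.

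Means over cells were compared as log2(CPM + 1) of the means, with genes at 1 CPM or more in either group, and differences of at least 2-fold were called. Counts of UMIs got exact Poisson intervals and shares exact Clopper-Pearson intervals (95%). All 10 members were named; other Sox genes were named at a mean of 5 CPM or more, up to 3 genes of like pattern were named per member (1 is not reported here), and 2 to 4 of the most abundant genes were named per list (endoderm, fibroblast, endothelial, cartilage, neural crest, blood, beta-catenin). Members, lists and limits were chosen with earlier results of these data known. The steps were tested on simulated data. Alternatives included edgeR 4.0.16 TMM factors and DESeq2 1.42.0 size factors in R 4.3.3. Python 3.11.15, pandas 2.3.3 and scipy 1.17.1 were used. Gene positions are from GENCODE on NCBIM37 and promoters from RefSeq on GRCm38.p6.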

Additional observations from a re-analysis of the deposited data

Results flagged for a closer look

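The 34 d20 cells that were left out for having fewer than 4000 detected genes held a signal of their own. Sox17 UMIs were found in 31 of them, 91.2% (76.3 to 98.1%), with a mean of 1051 CPM, at a median depth of 60536 UMIs. In the 12 d0 cells left out in the same way, Sox17 UMIs were found in 0, which allows UMIs in up to 25% of such cells (3 of 12) at a median depth of 23286 UMIs. Sox7 was in 16 of the 34 d20 cells (47.1%) and Sox11 in 0.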

How the results depend on the processing

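No paired analysis was possible because cells could not be tied to sequenced samples. Of 33 member folds past 2-fold, 12 were past it under all 15 alternatives and 14 under all but a pseudocount of 10 and the 4-fold call, while 15 were under the minimum level in at least 1 alternative and could not be called there. Under 1 alternative each, 3 changed sign, all in d12c cells numbered 49 to 96 against d12: Sox4 (0.82 with no filter on cells), Sox6 (0.25) and Sox18 (0.013, both thinned). The cause was not tested.

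The mean of Sox17 at d20 was 1015 CPM with no filter on cells, 1066 and 797.5 at 2000 and 6000 genes, 911.4 on summed UMIs, 783.4 from log values, 948.8 without the highest cell, 937.8 thinned, 774.9 with ERCC, 810.9 with TMM and 836.7 with DESeq2. That of Sox11 at d5 was 230.3 at 6000 genes, 208.6 summed, 168.2 from log values, 226.9 without the highest cell, 236.0 thinned, 244.7 with ERCC, 194.5 with TMM and 189.5 with DESeq2. Sox4 at d12 gave 99.9 with no filter, 108.2 summed, 37.3 from log values, 95.8 without the highest cell, 92.3 with ERCC, 123.2 with TMM and 125.6 with DESeq2.

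Members higher and lower than at d0 at d5 were 3 and 1 from log values and 2 and 1 at a pseudocount of 10, at 4-fold and at 10 CPM or more. At d12 2 were higher from log values, at a pseudocount of 10 and at 10 CPM, 3 thinned and 1 at 4-fold, and 1 was lower on summed UMIs, without the highest cell, with TMM, with DESeq2 and at a pseudocount of 0.1. Fewer members passed the minimum in some settings, 5 at d5 and 4 at d12 from log values and 4 at both at 10 CPM. The share of all genes higher at d12 was 8.16% at a pseudocount of 10 and 8.19% at 4-fold. At d1 4 were higher thinned, 1 at a pseudocount of 10 and 0 at 4-fold. At d20 4 were higher at 6000 genes and 1 lower at a pseudocount of 10 and at 4-fold. Between d12 and d20, 4 were higher with no filter, at 6000 genes and thinned, and lower were 2 from log values and at 4-fold and 1 at a pseudocount of 10 and at 10 CPM. In d12c cells numbered 49 to 96, 1 was lower than at d12 at 6000 genes, on summed UMIs, from log values, thinned, with TMM, with DESeq2, at a pseudocount of 10 and at 10 CPM, and 0 at 4-fold. In these last 2 comparisons, 6 and 5 members passed the minimum from log values, and 5 and 5 at 10 CPM. At a pseudocount of 10 and at 4-fold the share of all genes called was lower too, in every comparison.

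SoxC at d0 held 74.3% without division by length and 78.7% with no filter. SoxF at d12 held 33.2%, 40.3% and 32.8% (without length, with no filter, without the highest cell), and at d20 95.5% with no filter and 96.8% without the highest cell. Sox7 among cells with Sox17 was 26.8%, or 8.70% thinned and 6.45% at 5 CPM in d3 to d8c, was 12.5% and 11.1% at d12, and at d20 72.2% thinned, 72.5% with no filter and 100% in cells numbered above 48. Low-abundance members (Sox5, Sox6, Sox8, Sox12 and Sox18) are limited by depth and by single cells.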

Other observations

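Of 8 other Sox genes looked up in the table, 3 reached a mean of 5 CPM at a time point, all late in the course. Sox13, a SoxD gene, had 0.03 CPM at d0, 3.17 at d12, 5.45 in d12c and 8.22 at d20. Its d20 mean was 4.25 CPM without the highest of 38 cells, and 7 cells had UMIs. Sox14 and Sox21, SoxB2 genes known from the nervous system, had 0 UMIs at d0 and means of 8.97 and 5.26 CPM at d20, with UMIs in 10 and 6 of 38 cells. In d12c Sox14 had 5.04 CPM (7 of 51 cells) and Sox21 3.95 CPM (11 of 51 cells). Sox1, Sox3, Sox10, Sox15 and Sox30 stayed below 1.4 CPM at every time point.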
